A study of Mus musculus with 8 samples.

Results

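The S100 genes of epithelial cells were followed in cultured mouse fetal liver cells with and without the LATS kinases. They were the 9 genes *S100a1*, *S100a4*, *S100a6*, *S100a7a*, *S100a10*, *S100a11*, *S100a13*, *S100a14* and *S100a16*, taken by symbol from a table of 23471 rows with 1 row per gene. *S100a7a* was picked because it stood among the largest increases in Lats1/2-deleted cultures, so the difference between genotypes is given for these genes as a description without a p. *S100a8* and *S100a9*, which are abundant in neutrophils, were not taken as members. RNA was sequenced in 8 libraries of hepatoblasts from E14.5 livers of B6;129 mixed mice. Undifferentiated hepatoblasts (iHBs) gave 1 control and 1 L1L2_Alb library. Cells brought towards hepatocytes (iHPs) with 12.5 ng/ml oncostatin M gave 1 control and 2 L1L2_Alb libraries, and cells brought towards biliary epithelial cells (iBECs) by 14 days on Matrigel gave 1 control and 2 L1L2_Alb libraries. The labels give 5 days of oncostatin M, and the methods of the study give another duration. Control cells were labelled wild type, and L1L2_Alb cells were labelled *Lats1*-/-;Lats2f/fl;Alb-cre. In L1L2_Alb embryos *Lats1* was missing from every cell, whereas *Lats2* was deleted only where the albumin promoter had driven Cre, so other liver cells in the dish could keep *Lats2*. The cells were plated after lysis of red blood cells and without a sort for hepatoblasts. Whether libraries of 1 condition came from different embryos is not stated, so the spread between them may be technical.

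S100 proteins are small calcium sensors. Each chain carries a pair of EF-hand calcium-binding loops, most work as dimers, and on binding calcium they open a surface that holds partner proteins such as annexins, myosin or enzymes. Several are also released from cells and can act on the receptor RAGE, which the gene *Ager* encodes. Most S100 genes of the mouse lie in a cluster on chromosome 3 that also holds the genes of the cornified envelope of the skin, and many of them are typical of epithelia. The kinases LATS1 and LATS2 restrain YAP and TAZ, which act on genes through the DNA-binding TEAD factors.

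The depth recovered from the table was 18436865 to 33229075 reads per library. Levels are in RPKM, the reads of a gene per length of the gene and size of the library, and can therefore be compared between genes. *Lats1* was at 5.38 to 11.2 RPKM in control libraries and at 7.12 to 22.7 RPKM in libraries labelled L1L2_Alb, and *Lats2* was at 6.90 to 10.1 and at 10.9 to 27.6 RPKM. These values run over the whole gene, exons outside the deleted part included, and so do not check the deletion. The study itself reports reduced expression of LATS1 and LATS2 and raised YAP target genes in cultured L1L2_Alb cells. The genotypes are given as labelled. Hepatocyte genes were present in all libraries, with albumin (*Alb*) at 524 to 6162 RPKM, and so were the biliary keratin genes *Krt7* and *Krt19*. In control iHB, iHP and iBEC *Krt7* was at 400, 361 and 62.3 RPKM and *Alb* at 2485, 3088 and 6162 RPKM. *Spp1*, another biliary marker, was at 1706, 3188 and 23271 RPKM, so the markers did not all follow the name iBEC. The stages are named as labelled. The cultures also held RNA of blood cells and fibroblasts, and the summed neutrophil markers ranged from 43.8 RPKM in L1L2_Alb iHP replicate 2 to 14511 RPKM in control iHB.

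All 9 genes were detected, and all had a mean over 1 RPKM, the minimum for a test. The members spanned more than 3 orders of magnitude in mean level, from 3.22 RPKM for *S100a14* and 24.7 RPKM for *S100a16* to 2063 RPKM for *S100a11* and 3398 RPKM for *S100a6*. *S100a6*, *S100a10* and *S100a11* together made up 93.0% to 96.7% of the summed level of the 9 genes in each library. The order *S100a6*, *S100a11*, *S100a10* held in 7 of the 8 libraries, and in control iBEC *S100a11* stood above *S100a6*, at 1172 against 893 RPKM. *S100a14* was the lowest in all 8 libraries. The 9 genes took 0.369% to 0.608% of all RPKM in the control libraries and 0.765% to 1.49% in the L1L2_Alb libraries. *S100a6* was the 25th, 53rd and 119th most abundant gene in control iHB, iHP and iBEC. In the L1L2_Alb libraries it was the fifth in iHB, the fourth and the fifth in iHP, and the 24th and the 12th in iBEC.

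**Figure D1:**
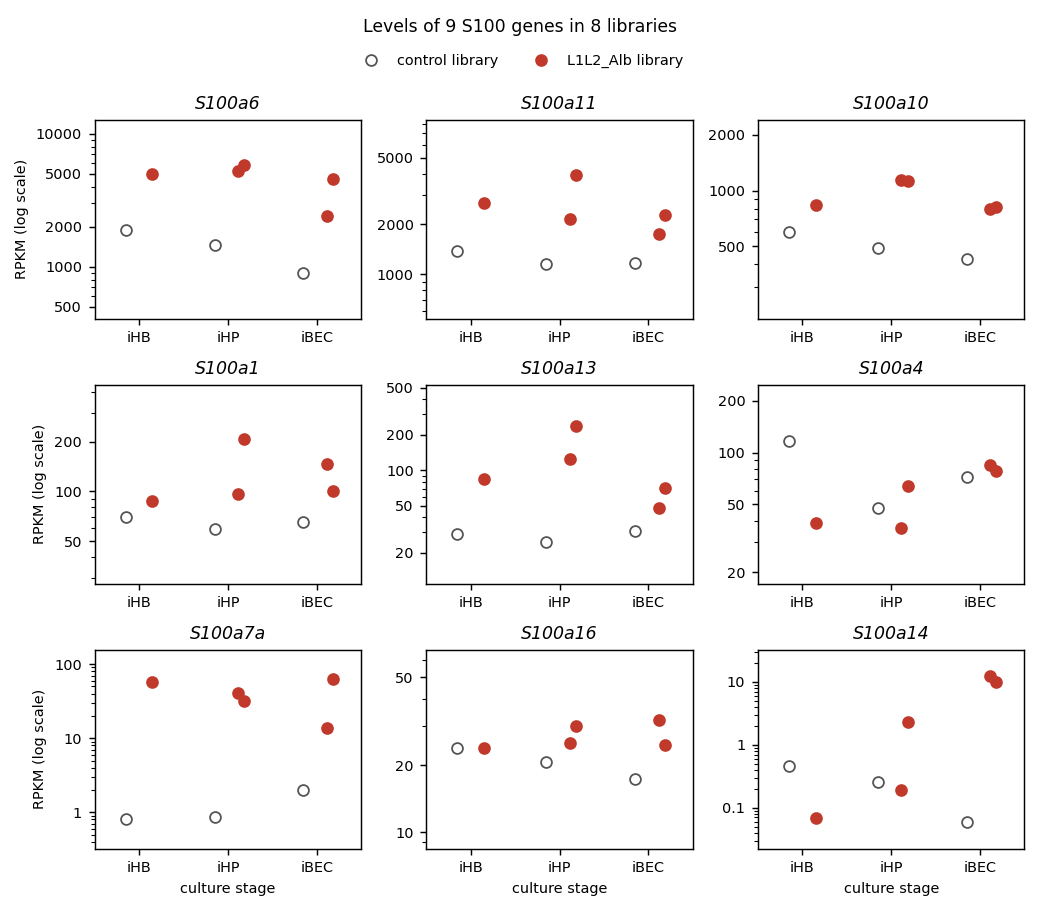
Level of each of the 9 S100 genes in RPKM on a log axis, by culture stage, with 1 open circle per control library and 1 filled circle per L1L2_Alb library. All filled circles lie above all open circles for *S100a6*, *S100a11*, *S100a10*, *S100a1*, *S100a13*, *S100a7a* and *S100a16* (23.8 RPKM in both genotypes in iHB), whereas *S100a4* and *S100a14* overlap.

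*S100a7a* encodes an S100 protein of the epidermis, from the psoriasin group that is abundant in inflamed skin. It was at 0.806 RPKM in control iHB, 0.868 RPKM in control iHP and 2.03 RPKM in control iBEC. In L1L2_Alb libraries it was at 57.8 RPKM in iHB, at 40.6 and 31.7 RPKM in iHP, and at 13.9 and 62.4 RPKM in iBEC. The lowest L1L2_Alb library, iBEC replicate 1, was above the highest control library, so the genotypes did not overlap. The control levels rested on 17, 18 and 50 reads, with exact Poisson 95% intervals of 9.9 to 27.2, 10.7 to 28.4 and 37.1 to 65.9 reads, whereas the L1L2_Alb libraries held 266 to 1230 reads. These intervals cover counting error only. Against the control library of its stage the level was 71.8-fold in iHB, 46.7-fold and 36.6-fold in iHP, and 6.83-fold and 30.7-fold in iBEC. The iBEC libraries differed from each other 4.50-fold, and those of iHP 1.28-fold. Among all genes *S100a7a* moved from places 11405 to 13916 in the order of abundance in control libraries to places 1667 to 5588 in L1L2_Alb libraries.

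The stretch before the start of *S100a7a* is shown because this gene had the largest fitted difference of the 9. It is 250 bases, chr3:90654052-90654301 on the plus strand, from RefSeq on GRCm38.p6, with capitals marking the letters GGAATG or their reverse complement CATTCC, the core that TEAD factors bind.
S100a7a: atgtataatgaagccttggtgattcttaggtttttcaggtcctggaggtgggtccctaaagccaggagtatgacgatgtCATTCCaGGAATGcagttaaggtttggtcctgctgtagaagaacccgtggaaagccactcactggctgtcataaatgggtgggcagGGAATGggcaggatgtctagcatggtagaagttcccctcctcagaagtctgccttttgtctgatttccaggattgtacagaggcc
The core occurred 3 times, at -171 to -166, -164 to -159 and -85 to -80 from the start, and the first 2 lie in opposite directions with 1 base between them. The search ran over windows from 250 bases before to 50 after a start, longer than the stretch shown. Of 32851 such windows in the same table, 14.7% held the core at least once on either strand and 0.131%, or 43 windows, held it at least 3 times. The other 6 members with a window, *S100a1*, *S100a4*, *S100a6*, *S100a11*, *S100a13* and *S100a16*, held none. A match of letters is a description and not a binding site, and the search was made with the levels of *S100a7a* known.

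*S100a6*, *S100a10* and *S100a11* encode the abundant S100 proteins that meet annexins and related partners at membranes. S100A6, also called calcyclin, binds the calcyclin-binding protein. S100A10 does not respond to calcium and holds annexin A2 in a complex at the cell surface, where it can bind plasminogen. S100A11 binds annexin A1. *S100a6* was at 1879, 1446 and 893 RPKM in control iHB, iHP and iBEC, against 4994 RPKM in L1L2_Alb iHB, 5208 and 5768 RPKM in L1L2_Alb iHP, and 2420.2 and 4574 RPKM in L1L2_Alb iBEC. The lowest L1L2_Alb value again came from iBEC replicate 1 and still exceeded every control value. *S100a10* was at 596, 489 and 428 RPKM in the controls, at 834 RPKM in L1L2_Alb iHB, at 1145 and 1131 RPKM in L1L2_Alb iHP, and at 793 and 820.2 RPKM in L1L2_Alb iBEC. It was the gene with the closest pairs, which differed 1.01-fold in iHP and 1.03-fold in iBEC. *S100a11* was at 1372, 1150.4 and 1172 RPKM in the controls, at 2691 RPKM in L1L2_Alb iHB, at 2151 and 3958 RPKM in L1L2_Alb iHP, and at 1754 and 2254 RPKM in L1L2_Alb iBEC. The mouse genome holds a pseudogene copy of *S100a11*, and how the counting treated reads that fit both is not given, so the split of reads between them is uncertain.

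The stretch before the start of *S100a11* is shown as the counterpart of the one above, from an abundant member with matches to another motif. It is 250 bases, chr3:93520246-93520495 on the plus strand, from RefSeq on GRCm38.p6, with capitals marking TGANTCA, the letters that AP-1 factors bind.
S100a11: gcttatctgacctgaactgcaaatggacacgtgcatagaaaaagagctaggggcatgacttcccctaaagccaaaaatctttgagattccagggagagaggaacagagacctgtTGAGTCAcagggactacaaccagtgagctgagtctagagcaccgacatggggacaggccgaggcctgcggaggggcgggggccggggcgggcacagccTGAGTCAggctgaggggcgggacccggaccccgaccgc
The AP-1 letters, which read the same on both strands apart from the middle base, occurred 2 times, at -136 to -130 and at -38 to -32. Of the 32851 windows 7.81% held them at least once and 0.460% at least 2 times. *S100a16* held 1 match in 1 of its 2 windows, and no other member window held one. The *S100a7a* stretch held no AP-1 letters, and the *S100a11* stretch held no TEAD core.

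*S100a1* and *S100a13* lie next to each other and start in opposite directions. S100A1 acts on calcium pumps and channels and is best known from heart muscle, and S100A13 takes part in the export of FGF1 and interleukin 1α, which lack a signal peptide. The bases between their starts are shown because both genes were higher in all L1L2_Alb libraries and share this stretch. It is 104 bases, chr3:90514331-90514434, written on the strand of *S100a13*, from RefSeq on GRCm38.p6, and held neither motif.
S100a1-S100a13: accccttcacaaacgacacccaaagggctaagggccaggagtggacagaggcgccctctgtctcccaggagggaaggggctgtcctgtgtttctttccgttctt
*S100a1* was at 70.2, 58.9 and 65.6 RPKM in control iHB, iHP and iBEC, at 87.7 RPKM in L1L2_Alb iHB, at 96.6 and 207 RPKM in L1L2_Alb iHP, and at 146 and 100.5 RPKM in L1L2_Alb iBEC. *S100a13* was at 29.2, 24.6 and 30.7 RPKM in the controls, at 84.8 RPKM in L1L2_Alb iHB, at 126 and 236 RPKM in L1L2_Alb iHP, and at 48.4 and 70.4 RPKM in L1L2_Alb iBEC. Both were highest in L1L2_Alb iHP replicate 2, and the genotypes did not overlap for either. A RefSeq model of *S100a13* begins inside *S100a1*, and the library kit does not mark strand, so reads of that overlap cannot be told apart.

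*S100a16* encodes a broadly expressed S100 protein and varied least of the 9. It was at 23.8, 20.6 and 17.4 RPKM in the controls, at 23.8 RPKM in L1L2_Alb iHB, at 25.2 and 30.2 RPKM in L1L2_Alb iHP, and at 32.2 and 24.7 RPKM in L1L2_Alb iBEC. The values of the iHB libraries were the same to 3 digits, so the genotypes were separated by less than 0.01 RPKM in that stage.

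*S100a4* encodes a protein that binds non-muscle myosin and is known from moving mesenchymal cells and macrophages as well as from tumours. It was at 117 RPKM in control iHB against 39.0 RPKM in L1L2_Alb iHB. In iHP the control was at 47.7 RPKM and the L1L2_Alb libraries at 36.4 and 63.6 RPKM, one below and one above it. In iBEC the control was at 71.6 RPKM and the L1L2_Alb libraries were at 84.5 and 78.3 RPKM. The summed level of 6 fibroblast markers was 3869 RPKM in control iHB and 1197 RPKM in L1L2_Alb iHB. In iHP control cells it was 2377 RPKM, against 649 and 1022 RPKM in the L1L2_Alb libraries, and in iBEC control cells 2530.3 RPKM, against 3511 and 1573 RPKM. The part of those cells in the *S100a4* values was not tested, and in bulk RNA fewer cells of a type and less RNA per cell cannot be told apart.

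*S100a14* encodes an epithelial S100 protein with altered calcium-binding loops. It was at 0.453 RPKM in control iHB, 0.252 RPKM in control iHP and 0.0585 RPKM in control iBEC. In L1L2_Alb libraries it was at 0.0677 RPKM in iHB, at 0.191 and 2.33 RPKM in iHP, and at 12.3 and 10.05 RPKM in iBEC. Only L1L2_Alb iBEC held it above 10 RPKM in both libraries, and L1L2_Alb iHP replicate 1 stayed below the control of its stage. Whole reads could not be recovered for *S100a14*. Per kilobase of length the levels correspond to 1.94 reads in control iBEC and in L1L2_Alb iHB, and to 319 and 240 reads in L1L2_Alb iBEC, so no ratio is given. The gene passed the minimum of 1 RPKM through the L1L2_Alb iBEC libraries.

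The genotypes were compared over the stages to estimate an average difference for each gene. Such an average does not show that a gene differed in the same way in all cultures. Values were changed to log2(RPKM + 1), which understates the change of genes near 0, and fitted with limma with stage as a block. The fitted difference, L1L2_Alb minus control on that log2 scale, was 4.15 for *S100a7a* (SE 0.478), 1.77 for *S100a6* (SE 0.282), 1.74 for *S100a13* (SE 0.367), 1.40 for *S100a14* (SE 0.667) and 1.03 for *S100a11* (SE 0.277). It was 0.91 for *S100a10* (SE 0.200), 0.86 for *S100a1* (SE 0.293), 0.39 for *S100a16* (SE 0.191) and -0.35 for *S100a4* (SE 0.328). All but *S100a4* and *S100a14* were higher in 5 of 5 L1L2_Alb libraries than in the control library of their stage, and these 2 were higher in 3 of 5. The share of all genes higher in 5 of 5 was not counted, so nothing is read from this. The median of the 9 genes was 1.03, beside 0.06 over all 13421 genes tested. At an adjusted p under 0.05 (Benjamini-Hochberg over all genes tested), 4 of the 9 were past the threshold, *S100a6*, *S100a7a*, *S100a10* and *S100a13*, all higher, where 9.57% of all genes tested were past it, 6.2% higher and 3.37% lower. Nothing is read from this count, since *S100a7a* was picked on the same contrast. The count was 2 without the iHB libraries, 0 without the iHP libraries, and 2 without L1L2_Alb iBEC replicate 2. In 7 of the 9 every L1L2_Alb library was above every control library, where 9.18% of all genes tested showed this and 3.7% showed the reverse.

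**Figure D2:**
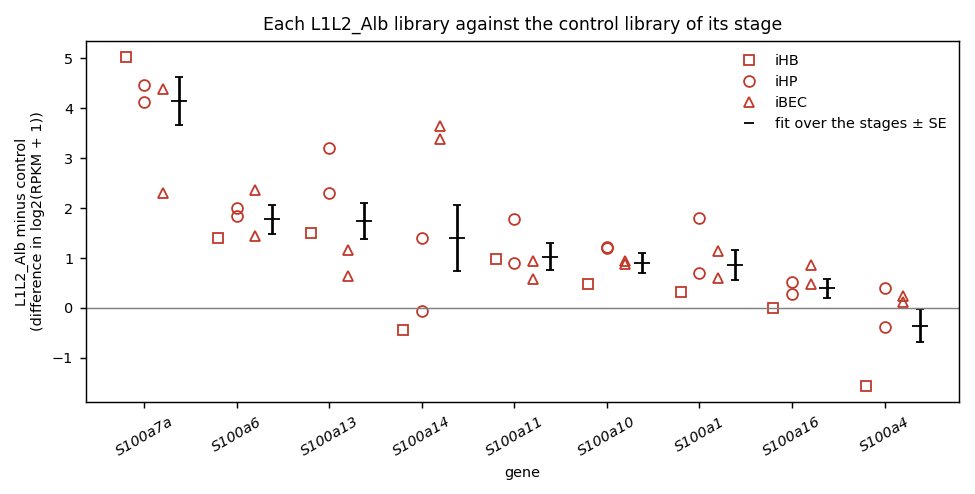
Difference of each L1L2_Alb library from the control library of its stage in log2(RPKM + 1), by gene, with squares for iHB, circles for iHP and triangles for iBEC, and the limma fit over the stages as a bar with its standard error. *S100a7a* lies between 2.29 and 5.03, *S100a14* spreads from -0.44 in iHB to 3.66 in iBEC, and *S100a4* has points on both sides of 0.

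Markers of other cells were set beside these differences. The 7 neutrophil markers summed to 3189 to 14511 RPKM in the control libraries and to 43.8 to 4602 RPKM in the L1L2_Alb libraries, so the groups overlapped, and 0 of the 7 passed the test. *Elane* was at 0 in L1L2_Alb iHP replicate 2. The 4 mesothelial markers summed to 109 to 268 RPKM in the controls and to 1054 to 3545 RPKM in the L1L2_Alb libraries, without overlap. Nearly all of that sum was mesothelin (*Msln*), a surface protein of mesothelium and of some carcinomas, which rose by 3.61 (SE 0.300, adjusted p = 9.3e-04 from limma). The other mesothelial markers were low, with *Wt1* at 3.96 to 18.8 RPKM, *Upk3b* at 0.177 to 3.59 RPKM and *Lrrn4* at 0 to 0.334 RPKM. The 6 macrophage markers measured summed to 1137 to 2045 RPKM in controls and 661 to 2686 RPKM in L1L2_Alb libraries, and the 6 fibroblast markers to 2377 to 3869 and 649 to 3511 RPKM, with 0 of 6 called in each list. Without the iBEC libraries 5 of the 6 fibroblast markers were called lower. The share of all genes called in that fit is not given here, so nothing is read from this count. The 7 erythroid markers summed to 6.43 to 286 RPKM in controls and to 2.99 to 51.8 RPKM in L1L2_Alb libraries, with 3 of the 5 tested lower, and the 5 endothelial markers to no more than 5.50 RPKM in any library. Of the biliary markers *Krt7* (2.17, SE 0.274, adjusted p = 0.00422 from limma) and *Krt19* (1.31, SE 0.260, adjusted p = 0.0205) rose and *Spp1* fell by 1.503 (adjusted p = 0.0306). Of the 6 hepatocyte markers 5 fell, among them *Ttr* by 1.95 (adjusted p = 0.00445 from limma). *Apoa1* pointed the other way, with a difference of 0.65 (adjusted p = 0.350 from limma). The hepatocyte markers summed to 8476 to 16773 RPKM in controls and to 7742 to 12521 RPKM in L1L2_Alb libraries, so the groups overlapped. *Krt19* lost its call in 3 of 12 alternative settings, *Spp1* in 6 (adjusted p up to 0.166), and *Krt7* in 1, the fit without the iHP libraries. The part of any of these cell types in the S100 values was not tested.

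**Figure D3:**
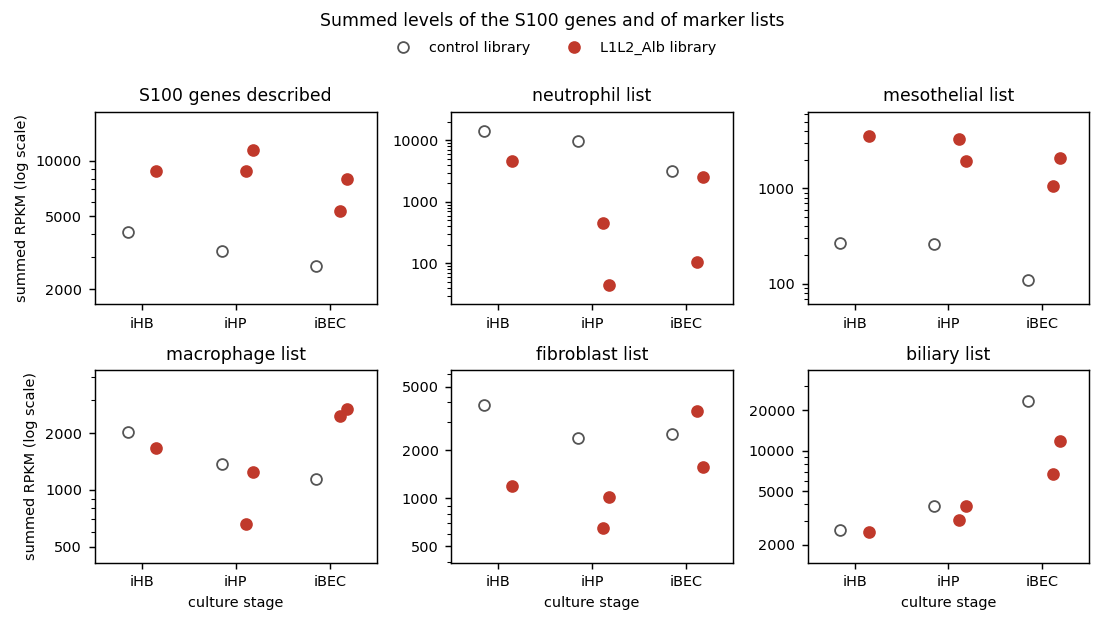
Summed level in RPKM on a log axis of the 9 S100 genes and of 5 marker lists, by culture stage, with open circles for control and filled circles for L1L2_Alb libraries. The S100 sum was 2680.1 to 4088 RPKM in controls and 5304 to 11429 RPKM in L1L2_Alb libraries, and of the lists the mesothelial one is also without overlap.

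The stages were compared with genotype as a block, a contrast that the choice of genes did not use. None of the 9 genes passed the threshold in any of the 3 stage comparisons (limma). Between iHP and iHB 0% of all genes tested were called, and 1158 genes had an unadjusted p under 0.05, none of them a member. The nearest member was *S100a13*, 0.56 higher in iHP (95% interval -0.49 to 1.61, adjusted p = 0.792). Between iBEC and iHB 5.72% of all genes tested were called, 2.94% higher and 2.78% lower in iBEC, and the nearest member was *S100a6*, with a difference of -0.81 (95% interval -1.61 to -0.0028, adjusted p = 0.199). In the control libraries alone *S100a6* stood at 1879 RPKM in iHB and 893 RPKM in iBEC, a difference of -1.07. *S100a14* had the largest estimate, 1.88 (95% interval -0.03 to 3.79), which rests on the L1L2_Alb iBEC libraries. The median of all genes in this comparison was -0.25, and -0.02 after upper-quartile scaling. Of the 6 hepatocyte markers 3 were called higher in iBEC than in iHB and 0 lower. Of the 6 biliary markers *Spp1* was called higher (3.99, adjusted p = 0.00193 from limma) and *Krt7* lower (-2.13, adjusted p = 0.0108).

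Between iBEC and iHP 4.12% of all genes tested were called, 2.45% higher and 1.67% lower in iBEC. *S100a6* (-0.71) and *S100a13* (-0.93) had an adjusted p of 0.226 each from limma, and *S100a4* (0.69) one of 0.308. The widest interval was that of *S100a14*, -0.03 to 3.35 around an estimate of 1.66, which rests on the L1L2_Alb iBEC libraries. Of the remaining members *S100a7a* had the widest interval, -1.15 to 1.27, and *S100a16* the narrowest, -0.54 to 0.43. For *S100a7a* differences of more than 1 on the log2 scale in either direction were thus left within the interval. Within the 4 L1L2_Alb libraries of iHP and iBEC alone, 1 of the 9 members was called, *S100a14*, where 3.41% of all genes tested were called. Nothing is read from this call, because *S100a14* passed the minimum of 1 RPKM through the L1L2_Alb iBEC libraries. *S100a13* was at -1.55 in that fit (SE 0.389, adjusted p = 0.0824 from limma).

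**Figure D4:**
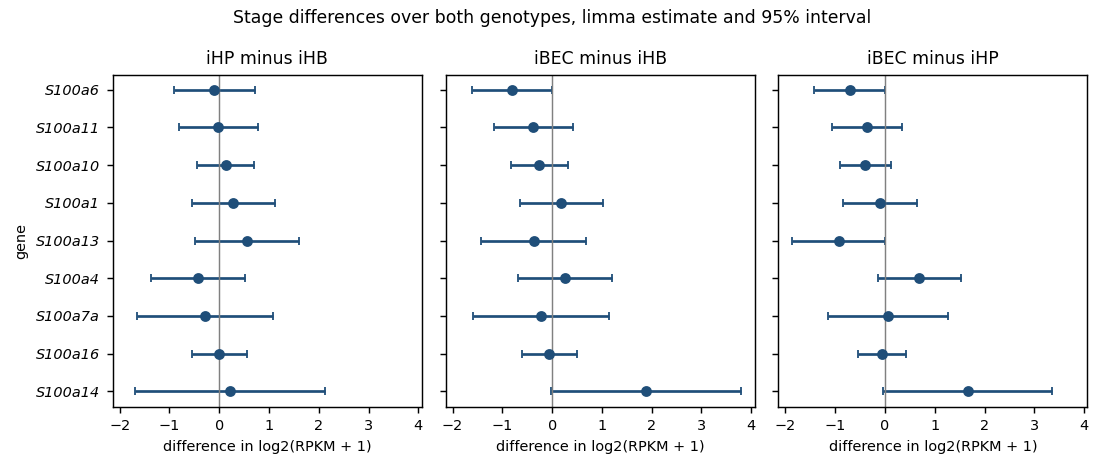
Stage differences of the 9 S100 genes over both genotypes in log2(RPKM + 1), with the limma estimate as a point and its 95% interval as a line. All intervals include 0 but that of *S100a6* between iBEC and iHB, which ends at -0.0028, and the *S100a14* estimates for iBEC are the farthest from 0.

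Whether the genotype difference itself changed between stages was put to an F test (limma, moderated) over the 6 conditions. The number of genes past the threshold was 0 of 13421, and 733 genes had an unadjusted p under 0.05. None of the 9 members passed the threshold. The adjusted p of *S100a4* was 0.959, and that of *S100a7a* was 0.9999. No p is given for *S100a14*, which entered the test through the L1L2_Alb iBEC libraries. It was 3.66 and 3.38 above the control in the iBEC libraries, 1.41 above and 0.07 below it in the iHP libraries and 0.44 below it in iHB, on the log2(RPKM + 1) scale. This fit had 2 residual degrees of freedom, all from the pairs of L1L2_Alb libraries.

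Other S100 genes of the table were few. Of the 12 listed 8 were in the table and 4 had a mean over 1 RPKM. *S100a3*, which is known from the hair cuticle, was at 2.32, 1.71 and 0.169 RPKM in control iHB, iHP and iBEC, against 14.98 RPKM in L1L2_Alb iHB, 11.2 and 7.32 RPKM in L1L2_Alb iHP and 2.44 and 9.07 RPKM in L1L2_Alb iBEC. It rose by 2.16 (SE 0.353, adjusted p = 0.0102 from limma) and was higher in 5 of 5 libraries, and the adjusted p was 0.0626 without the iHB and 0.0901 without the iHP libraries. *S100g*, which encodes the calcium-binding protein calbindin-D9k, was at 9.40 to 26.8 RPKM with a difference of -0.05 (adjusted p = 0.933 from limma). The neutrophil genes *S100a8* (-3.38, adjusted p = 0.113) and *S100a9* (-3.72, adjusted p = 0.0931) pointed the other way without passing the threshold. Together they spanned 18.3 to 7494 RPKM, with the lowest values in L1L2_Alb iHP replicate 2. *S100a9* passed the threshold without L1L2_Alb iBEC replicate 2 (adjusted p = 0.0394 from limma). *S100a2*, *S100a5*, *S100b* and *S100z* were at 1.16 RPKM or less in every library.

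The order of the genes on chromosome 3 (RefSeq, GRCm38.p6) puts all 9 members in one cluster, from *S100a1*, *S100a13*, *S100a14* and *S100a16* over *S100a4*, *S100a6* and *S100a7a* to *S100a11* and *S100a10* at the far end. Between *S100a1* and *S100a10* lay 57 further genes of the table, mainly of the small proline-rich (Sprr) and late cornified envelope (Lce) families, of which 10 were at 0 in all libraries and 12 could be tested. Of these 12, 2 were called higher, *S100a3* and *Crct1*, and none lower, where 6.2% of all genes tested were called higher. *S100a8* (-3.38) and *S100a9* (-3.72), also among the 12, were lower without passing the threshold. The median difference of the 12 was 0.55. Among the 10 genes on either side of the cluster 10 were tested, of which 0 were called higher and 1 lower. *Crct1*, a cysteine-rich gene of the squamous epithelium cluster, was at 3.23, 8.82 and 1.85 RPKM in control iHB, iHP and iBEC and at 22.2 to 50.9 RPKM in the L1L2_Alb libraries, a difference of 2.84 (SE 0.332, adjusted p = 0.00329 from limma). *Sprr2a1* and *Sprr2a2*, near-identical copies, had the same fitted difference and cannot be told apart.

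**Figure D5:**
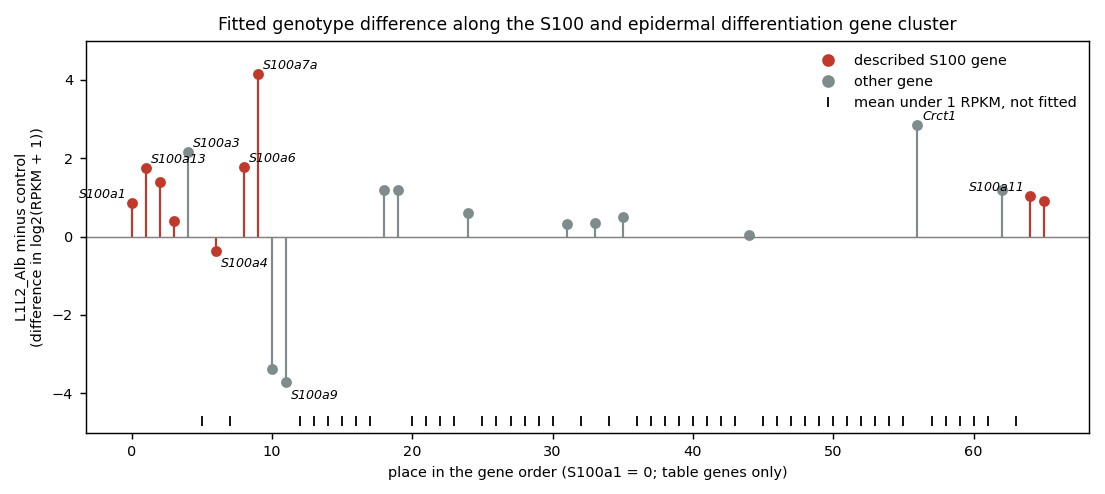
Fitted difference between L1L2_Alb and control in log2(RPKM + 1) for genes in their order along chromosome 3, counted from *S100a1* as 0, with the 9 S100 genes in red, other tested genes in grey and genes under a mean of 1 RPKM as ticks at the bottom. *S100a7a* (4.15), *Crct1* (2.84) and *S100a3* (2.16) stand highest, and *S100a8* and *S100a9*, next to *S100a7a*, lie at -3.38 and -3.72.

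Proteins that S100 proteins bind or act through were listed as 20 genes, all of them tested. Between the genotypes 5 were called higher and 1 lower, where 6.2% of all genes tested were called higher and 3.37% lower. The median difference was 0.32 beside 0.06 over all genes. *Anxa1*, the annexin that binds S100A11, was at 754, 572 and 439 RPKM in control iHB, iHP and iBEC and at 1668 to 3931 RPKM in the L1L2_Alb libraries, a rise of 1.88 (SE 0.313, adjusted p = 0.0107 from limma). *Ager*, the gene of RAGE, rose by 1.76 (SE 0.385, adjusted p = 0.0286) from 42.3, 49.0 and 1.27 RPKM in the controls. *Ezr*, which encodes the membrane linker ezrin, rose by 1.66 (SE 0.234, adjusted p = 0.00626). *Plg*, the gene of plasminogen made by hepatocytes, fell by 2.55 (SE 0.317, adjusted p = 0.00411). The adjusted p was over 0.05 for *Ager* in 4 of 12 alternative settings (up to 0.130), for *Anxa1* in 2 (up to 0.0638), and for *Ezr* (up to 0.0839) and *Plg* (up to 0.0661) in 1 each. *Ahnak*, also tied to S100A10, was among the 5 called higher, with a difference of 1.49 (SE 0.252, adjusted p = 0.0114 from limma). Its adjusted p was over 0.05 in 1 of 12 alternative settings (up to 0.0809). *Anxa2* and *Cacybp*, picked as partners of S100A10 and S100A6 after their values were seen, did not pass the threshold. *Anxa2* had a difference of 0.88 (SE 0.284, adjusted p = 0.0916 from limma), and *Cacybp*, the gene of the calcyclin-binding protein, one of 0.35 (SE 0.181, adjusted p = 0.275). *Anxa2* and *Cacybp* were each higher in all 5 L1L2_Alb libraries than in the control of its stage. These 5 libraries share 3 control libraries, and the share of all genes showing this was not counted.

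Between iBEC and iHB 1 partner was called higher in iBEC and 4 lower, and between iBEC and iHP 1 higher and 3 lower (limma). *Plg* was higher in iBEC, by 5.02 against iHB (adjusted p = 6.9e-04) and by 2.05 against iHP (adjusted p = 0.0210). *Ager* was lower in iBEC, with a difference of -3.69 from iHB (adjusted p = 0.00476 from limma) and of -3.07 from iHP (adjusted p = 0.0116), so the receptor gene was at 1.27 to 18.5 RPKM in iBEC libraries and at 42.3 to 165 RPKM in the others. *Ahnak*, a scaffold that S100A10 and annexin A2 hold at the membrane, was also lower (differences of -1.64 and -1.61, adjusted p = 0.0223 and 0.0222 from limma), and *Plaur*, the receptor of urokinase (-1.96 and -1.55, adjusted p = 0.0146 and 0.0306). Between the genotypes *Ahnak* and *Plaur* were both called higher, *Plaur* with a difference of 1.38 (SE 0.269, adjusted p = 0.0190 from limma). Between iBEC and iHP the adjusted p of *Plaur* passed 0.05 in 6 of 12 alternative settings (up to 0.131), that of *Plg* in 4 (up to 0.0873) and that of *Ahnak* in 4 (up to 0.0964). Between iBEC and iHB that of *Ahnak* passed 0.05 in 2 of 9 (up to 0.0624).

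Other proteins with EF-hands were listed as 27 genes, of which 22 were tested. Between the genotypes 5 were called higher and none lower, where 6.2% of all genes tested were called higher. Among the 5 were *Myl12a*, a light chain of non-muscle myosin (1.29, SE 0.219, adjusted p = 0.0114 from limma), *Capn2*, the large subunit of a calcium-activated protease (1.04, SE 0.183, adjusted p = 0.0129), and *Calm2*, 1 of the calmodulin genes (1.02, SE 0.204, adjusted p = 0.0208). Without the iHB or the iHP libraries none of the 22 was called. Genes of the cornified envelope and of squamous epithelium were listed as 27, of which 9 were tested and 1 was called. This was *Cnfn*, which encodes cornifelin, at 0.590, 0.492 and 0.477 RPKM in the controls and at 2.69 to 28.9 RPKM in the L1L2_Alb libraries. It passed the minimum of 1 RPKM through the L1L2_Alb libraries, so its call is not read as a result, and it was lost in 3 of 12 alternative settings. The other 16 genes of that list in the table had a mean under 1 RPKM.

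Genes with the pattern most like that of *S100a7a* and *S100a6* were looked up over the 8 libraries, among 8244 genes tested with a range of at least 1 in log2(RPKM + 1). The points share the 2 genotypes and 3 stages, so the correlations are a description. For *S100a7a* these were *Sox17* (r = 0.99), *Efemp1* (0.98), *Ablim3* (0.98), *Jam2* (0.97) and *Epha2* (0.97). *Sox17* was at 0.348 to 0.879 RPKM in the controls, at 10.3 RPKM in L1L2_Alb iHB, at 10.2 and 6.43 RPKM in L1L2_Alb iHP, and at 4.57 and 9.55 RPKM in L1L2_Alb iBEC, with the lowest L1L2_Alb value in iBEC replicate 1 as for *S100a7a*. For *S100a6* they were *Fam129b*, *Rab33b*, *Dlg1*, *Serpinb9b* and *Cast*, each with r = 0.98. *Serpinb9b* was at 10.5 to 65.2 RPKM in the controls and at 204 to 950.5 RPKM in the L1L2_Alb libraries.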

How the data were processed

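RNA of 8 libraries was prepared with a TruSeq RNA v2 kit, which does not mark strand. The values deposited by the authors are RPKM, 1 for each gene in each library, without scaling between libraries. Their unit was inferred here, since no label states it. The submitters' processing notes name Bowtie 0.12.2 and mm8. The counting method and annotation are not given in the sources used here. Of 23471 rows 4, of 2 repeated symbols, were left out. Depth came from short RNA genes worth 1 read, and reads of a gene from the smallest length that made them whole (within 0.01) in all libraries.

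The 13421 genes whose mean reached 1 RPKM were fitted in log2(RPKM + 1) by lmFit and eBayes with trend (limma 3.58.1, R 4.3.3), additive in stage and genotype, two-sided, with Benjamini-Hochberg adjustment and a threshold of 0.05, after tests on simulated data. RPKM is not a count, so no count model was used. Python 3.11.15 with pandas 2.3.3, numpy 2.4.6 and scipy 1.17.1 made the tables. The alternatives were a pseudocount of 0.1, upper-quartile scaling (percentile 75), no filter, a minimum mean of 5 RPKM, no trend in eBayes, leaving out an L1L2_Alb library of a pair or a stage, and the 4 L1L2_Alb iHP and iBEC libraries alone.

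The genes and lists were chosen with earlier results of these data known. All 9 members are named. Of each list up to 3 called genes per direction with the largest difference are named, and for *S100a7a* and *S100a6* the 5 genes of highest correlation. *Ahnak* and *Plaur*, named for the stages, are also given between genotypes. Sequences came from RefSeq tables of GRCm38.p6, in which 7 of the 9 members matched. *S100a10* and *S100a14* did not. Coordinates of that build belong to the sequences and not to the mm8 table. A result of 1 further gene is not reported here.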

Additional observations from a re-analysis of the deposited data

Results flagged for a closer look

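*S100a4* had differences of opposite sign in 2 stages, each against 1 control library. It was lower in the L1L2_Alb iHB library, with a difference of -1.56 in log2(RPKM + 1) from its control, and higher in both L1L2_Alb iBEC libraries, with a mean difference of 0.18. For this gene the L1L2_Alb iBEC libraries differed from each other by 0.11, less than the iBEC difference. The L1L2_Alb iHP libraries differed by 0.79, more than the iBEC difference. The spread between control libraries of a stage is not known. The F test of the difference between stages over all 3 stages did not pass the threshold (adjusted p = 0.959 from limma), and the contrast of iBEC with iHB alone was not tested.

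*S100a14* also had differences of opposite sign in these stages. The difference was -0.44 in L1L2_Alb iHB, where both libraries held few reads, and positive in both L1L2_Alb iBEC libraries, with a mean difference of 3.52. No p is given, because the gene entered the test through these iBEC libraries. No group had more than 2 libraries, so no library could be tested as standing apart within its group.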

How the results depend on the processing

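The fitted genotype difference kept its direction in every alternative for all members but *S100a4*, which was at 0.10 without the iHB stage. *S100g* turned to 0.21 without iHB and 0.0057 without iHP, and lay from -0.15 to 0.071 without 1 library. *S100a7a* ranged from 3.82 to 4.91 and *S100a14* from 0.19 to 2.22. Of 1284 genes called between genotypes, 64.8% were higher, and 49.1% with upper-quartile scaling. The number was 686 with no filter, 326 without iHB, 132 without iHP, and 793 to 1227 without 1 library. The members called, 4 in the fit given, were 1 with no filter, 2 without iHB, 0 without iHP and 2 to 5 without 1 library. For iHP against iHB the 0 genes called became 3 with upper-quartile scaling, 4 with a mean of at least 5 RPKM and 0 to 1 without 1 library. For iBEC against iHB, 768 genes were called (51.4% higher, and 72.7% with upper-quartile scaling), 492 with no filter and 488 to 1739 without 1 library. For iBEC against iHP, 553 were called (59.5% higher, and 69.9% with upper-quartile scaling), 211 with no filter, 293 without iHB and 156 to 987 without 1 library. The cause of these changes was not tested.

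The labels number the L1L2_Alb iHP and iBEC libraries 1 and 2. The deviations of same-numbered libraries had a correlation of -0.02 over 13421 genes, which cannot tell whether they share an embryo or a culture. With that number as a replicate block, 911 genes were called between iBEC and iHP in these 4 libraries, against 457 without the block, 6.79% against 3.41% of the genes tested. Of the members 2 were called against 1, *S100a13* (adjusted p = 0.0137 from limma with the block) beside *S100a14*, which entered the test through L1L2_Alb iBEC. With 1 control library per stage, no genotype difference within a stage has a replicate check, and *S100a14* in control iBEC is at the limit of detection.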
